A study of Mus musculus with 6 samples.

Results

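Processed pseudogenes are copies of messenger RNAs, and the 137 described here are those that reached a mean of at least 10 normalized counts over 6 libraries of HL-1 cells. The members were chosen by the Ensembl biotype processed_pseudogene and by this mean level, not by any difference between the groups. They are 137 of 1510 processed pseudogenes and of 21269 genes in all. A further 188 processed pseudogenes had a mean of 5 to under 10, and 1185 were lower. HL-1 is an established line of mouse atrial cardiomyocytes that beats and divides in culture. All libraries came from cells seeded 24 hours before transfection and collected 48 hours after it, with 50 nM of an LNA gapmer. Gapmers are antisense oligonucleotides, with a DNA core between locked nucleic acid (LNA) bases, through which RNase H cuts the paired RNA. Of the 6 libraries, 3 received a control gapmer (LNA Control) and 3 a gapmer against the nuclear long noncoding RNA Malat1 (LNA Malat1). Both groups were thus transfected with a gapmer. Total RNA was sequenced, and the question was which transcripts change when Malat1 is reduced.

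A processed pseudogene arises when the reverse transcriptase of a LINE element copies a spliced messenger RNA back into the genome. The copy lacks the introns and usually the promoter of its parent gene, collects mutations, and lies wherever it was inserted. It can be transcribed from a nearby promoter, as part of an intron of a host gene, or not at all. Abundant housekeeping messengers, above all those of ribosomal proteins, have left many copies in mammalian genomes. Because a copy resembles its parent, a short sequencing read can fit both places, which makes the counting of reads part of the measurement.

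The sequences below show what separates a copy from its parent in several of the pairs described later. Each line is a stretch of 75 bases, the length of 1 read, read 5′ to 3′ on the transcribed strand from mm10, and the parent's stretch lies in its coding exons. Capitals mark the bases that differ within a pair. Gm12608 (minus strand, chr4:89444432-89444506) is a copy of Hspd1, the mitochondrial chaperonin Hsp60. The Hspd1 stretch (minus strand, chr1:55084748-55086802) crosses an intron after base 37, which the copy lacks, and the pair differs at 7 bases.
Gm12608: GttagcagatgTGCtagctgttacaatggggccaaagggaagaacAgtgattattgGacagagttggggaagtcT
Hspd1: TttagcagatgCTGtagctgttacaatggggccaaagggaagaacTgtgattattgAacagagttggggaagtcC
Gm43058 (minus strand, chr5:23387969-23388043) is a copy of Lsm14a (minus strand, chr7:34353531-34353708), which encodes an RNA-binding protein of processing bodies. This pair differs at 13 bases, and Lsm14a is spliced after base 44.
Gm43058: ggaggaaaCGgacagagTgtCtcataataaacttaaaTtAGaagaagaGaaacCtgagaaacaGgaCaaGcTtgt
Lsm14a: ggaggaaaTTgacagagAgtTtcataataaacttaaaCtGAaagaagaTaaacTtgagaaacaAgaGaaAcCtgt
Gm28188 (minus strand, chr1:101880660-101880734) is a copy of Ankrd37 (minus strand, chr8:45997776-45998426), an ankyrin repeat gene induced in hypoxia. The pair differs at 7 bases, and Ankrd37 is spliced after base 30.
Gm28188: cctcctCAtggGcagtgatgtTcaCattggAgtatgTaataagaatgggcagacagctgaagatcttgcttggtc
Ankrd37: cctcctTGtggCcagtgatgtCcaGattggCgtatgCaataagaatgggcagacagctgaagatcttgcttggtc
Utp14b-ps1 (plus strand, chr3:113020463-113020537) is a copy of Utp14b (plus strand, chr1:78665019-78665093), a gene of ribosomal RNA processing whose aligned part has no splice junction. The pair differs at 8 bases.
Utp14b-ps1: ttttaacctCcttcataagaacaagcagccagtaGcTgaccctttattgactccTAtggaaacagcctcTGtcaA
Utp14b: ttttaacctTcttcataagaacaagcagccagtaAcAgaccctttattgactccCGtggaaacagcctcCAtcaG
Gm6548 (minus strand, chr17:78851817-78851891) is a copy of Eef1a1 (minus strand, chr9:78480111-78480277), translation elongation factor 1 alpha. It differs at 2 bases in this stretch, and Eef1a1 is spliced after base 37.
Gm6548: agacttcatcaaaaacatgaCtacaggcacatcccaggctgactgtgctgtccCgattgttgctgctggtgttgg
Eef1a1: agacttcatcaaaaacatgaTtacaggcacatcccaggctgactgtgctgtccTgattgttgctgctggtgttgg
Ptges3-ps (plus strand, chr6:85844059-85844133) is shown because it matches Ptges3 (plus strand, chr10:128068749-128069253), the Hsp90 cochaperone p23, at every base of its annotated transcript. The stretch of Ptges3 is spliced after base 37.
Ptges3-ps: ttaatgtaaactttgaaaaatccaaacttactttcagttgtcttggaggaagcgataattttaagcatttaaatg
Ptges3: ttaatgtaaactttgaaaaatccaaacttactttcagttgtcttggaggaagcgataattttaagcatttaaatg

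All 137 members were matched to a GENCODE M21 transcript on mm10. Their annotated lengths ran from 111 to 4726 bases with a median of 772, and 120 of them had a single exon. A parent was assigned as the protein-coding gene whose transcript aligned best over at least 50% of the pseudogene, and 132 members had one, from 118 distinct genes. Of 16 members whose own name gives a parent, 11 were assigned that gene under the same or an older symbol, so some parents may be wrong. Identity to the parent ran from 64.7% to 100% with a median of 90.0%. The authors left out reads that aligned to several places, so a read that lies wholly in a 75-base stretch shared exactly with another gene's transcript should be missing from the counts. In 66 members no such stretch was shared, and in 13 at least 50% of the stretches were. RefSeq listed 109 of the members by symbol, 99 of them as pseudogenes and 6 as transcribed pseudogenes. It listed the remaining 4, AA414768, Gm12250, Gm10509, and Gm36298, as protein-coding.

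Most members were close to the lowest level that the choice admits. The mean was 10 to under 20 in 88 members, 20 to under 50 in 33, and at least 50 in 16, with a median of 16.3. Just inside the limit, Gm2830, Gm12917, and Actr3-ps had a mean of exactly 10, and just outside it Gm8522, Gm42642, Rps12-ps26, and Gm14049 had 9.83. In 28 members only 1 of the 2 groups had a mean of at least 10, and in 20 of these that group was LNA Malat1. Such members reached the limit only through the group in which they are high, and they hold 4 of the members called higher below (Gm12608, Gm43058, Gm28188, and Gm7451) and 1 called lower (Gm17228). Per kilobase of exon, the mean level of a pseudogene had a median of 29.0% of the parent's level over 122 pairs, and in 21 pairs it was above the parent's. All members passed the minimum of 5 used for testing.

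The normalized counts summed to 4758777 to 4921406 per library, and the number of reads behind them was recovered as 4512277 to 5592891. Malat1, the targeted transcript, had 5051, 5197, and 4369 normalized counts in LNA Control against 2833, 2792, and 2732 in LNA Malat1, with a log2 fold change of -0.80 ± 0.07 (SE; adjusted p = 7.46e-06, limma). All LNA Malat1 libraries lay below all controls, at 57.2% of their mean. Of 10 cardiomyocyte marker genes 9 were measured, with a summed level of 5145 to 5384 in LNA Control against 4850 to 4953 in LNA Malat1. However, Myh6, the atrial and adult myosin heavy chain, had at most 7 normalized counts, and Nppa had no entry among the genes measured. Summed over 2 of 4 macrophage markers, the level was 32 to 36 in LNA Control against 54 to 81 in LNA Malat1. It was 1 to 10 and 8 to 17 for 1 of 4 endothelial markers, 1953 to 2530 and 1824 to 1957 for 3 of 4 fibroblast markers, and 1512 to 1678 and 1553 to 1701 for all 4 smooth muscle markers. Col1a1 made up most of the fibroblast sum, with a mean of 2023 over the 6 libraries, against 38.7 for Pdgfra and 0.33 for Col1a2. Dcn, the macrophage markers Ptprc and Adgre1, and the endothelial markers Cdh5, Kdr, and Tie1 had no entry among the genes measured. The sums are therefore levels of single genes more than of cell types. Whether other cell types had a part in the results was not tested. LNA Malat1 replicates 1 and 3 differed by less than sampling noise over all genes compared (chi-square of 0.949 per gene), though by more than it in the 1754 genes with most reads (1.11 per gene, chi-square p = 0.00055), so counts of calls are also given with their mean as 1 sample. LNA Malat1 replicate 2 was also close to the other LNA Malat1 libraries, with a chi-square of 1.01 per gene against replicate 1 and 1.16 against replicate 3. The pairs of LNA Control libraries were at 1.77 to 4.18 per gene, so most of the spread lay within LNA Control. No source says that the libraries of a group came from separate cultures. The p-values therefore measure only the spread between these libraries, which may be technical.

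Of the 137 members, 15 (10.9%) were upregulated and 2 (1.46%) were downregulated in LNA Malat1. The call required a change of 1.5-fold or more and an adjusted p not above 0.05 by limma on log2(normalized count + 1). Over all 15650 genes tested, 8% were called higher and 2.92% lower, so the share of members called was near that of all genes in both directions. The median log2 fold change was 0.19 in the members and 0.02 in all genes tested. The change was above 0 in 100 members and below 0 in 37, against 8262 and 7388 of all genes. Genes of low level lay higher as a class. At a mean of 10 to under 20 the median was 0.12 in members and 0.32 in all genes. At 20 to under 50 it was 0.33 in members and 0.23 in all genes, and at 50 or more 0.15 and -0.03. In 32 members all LNA Malat1 libraries lay above all controls and in 11 all lay below, while 20.5% and 20.8% of all genes did so. Without a fold minimum 17 members were higher and 4 lower, against 14.3% and 14.0% of all genes. With LNA Malat1 replicates 1 and 3 as 1 sample, 6 members were called higher and 1 lower, against 5.31% and 2.73% of all genes. After quantile normalization 5 were called higher and 9 lower, against 4.78% and 4.59%, and the median was -0.10. Median-of-ratios scaling left 15 higher and 2 lower with a median of 0.17, so the sign of the median turned under quantile normalization and not under the other scaling. Leaving out LNA Control replicate 1 gave a median of 0.099, and leaving out replicate 3 gave 0.30. Leaving out LNA Malat1 replicate 1 or 2 left 5 members called higher, and leaving out LNA Malat1 replicate 3 or LNA Control replicate 2 left 8 higher and 1 lower.

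Genes of low level were called higher more often than others, which sets the scale for these counts. Among members with a mean of 10 to under 20, 7 of 88 were called higher, against 18.5% of all genes at that level, and 2 were called lower, against 1.54%. Between 20 and under 50, 5 of 33 members were called higher, against 19.6% of all genes, and 0 lower, against 3.87%, with 0 lower at an unadjusted p under 0.05 (limma). At a mean of at least 50, 3 of 16 members were called higher, against 3.05%, and 0 lower, against 3.33%, with 4 lower at an unadjusted p under 0.05.

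Gm12608, the Hspd1 copy shown above, had the largest rise, and it is 1 of the members that reached the mean of 10 only through LNA Malat1. It had 4, 5, and 3 normalized counts in LNA Control against 21, 20, and 25 in LNA Malat1, for a log2 fold change of 2.22 ± 0.31 (SE; adjusted p = 0.00023, limma, n = 3 per group). Every LNA Malat1 library was above every control, and the call held whichever library was left out. In bulk RNA, a transcript present in more cells and one more abundant in each cell cannot be told apart. Gm12608 shared no 75-base stretch with another transcript. It lies on chr4:89442217-89444644 inside Gm12610, a noncoding gene on the opposite strand, which had 17, 24, and 27 normalized counts in LNA Control against 17, 26, and 18 in LNA Malat1. These ranges overlapped.

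Gm43058, the Lsm14a copy, also reached the limit only through LNA Malat1. It lies on chr5:23387620-23388244 within the long noncoding RNA gene 5031425E22Rik on the same strand. Its normalized counts were 5, 8, and 3 in LNA Control against 21, 23, and 13 in LNA Malat1, for a log2 fold change of 1.70 ± 0.37 (SE; adjusted p = 0.0048). The groups did not overlap, and the call held with each library left out. The host gene itself had 247, 282, and 288 normalized counts in LNA Control against 394, 376, and 391 in LNA Malat1, with a log2 fold change of 0.51 ± 0.07. The change of Gm43058 exceeded that of its host by 1.19 on the log2 scale, which did not pass the test of the difference (adjusted p = 0.11, limma).

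In several other rises the controls varied widely. Gm20121, a copy of Arhgap11a, had 4, 16, and 17 normalized counts in LNA Control against 34, 34, and 26 in LNA Malat1. Gm16386, aligned to the zinc finger gene Zfp946, had 18, 36, and 59 in LNA Control against 67, 65, and 71 in LNA Malat1. For both, LNA Malat1 was above all controls, but the controls themselves differed more than 3-fold, and replicate 1 was the lowest. The log2 fold changes were 1.48 ± 0.41 (adjusted p = 0.018) and 0.98 ± 0.31 (adjusted p = 0.030), and the calls held in 3 and 1 of 6 fits with a library left out. Gm7451, a copy of the kinase gene Stk38l with 97.4% identity, had 5, 5, and 15 normalized counts in LNA Control against 18, 20, and 17 in LNA Malat1, with a log2 fold change of 1.21 ± 0.38 (adjusted p = 0.031). Control replicate 3 came close to the LNA Malat1 libraries, and the call held in 1 of 6 such fits.

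Gm28188, the Ankrd37 copy, rose while its parent fell. The pseudogene had 12, 10, and 7 normalized counts in LNA Control against 20, 23, and 19 in LNA Malat1, with a log2 fold change of 1.05 ± 0.28 (adjusted p = 0.014). Ankrd37 had 40, 24, and 23 in LNA Control against 12 in each LNA Malat1 library, a log2 fold change of -1.16 ± 0.26 (adjusted p = 0.0055). The groups did not overlap for either gene. Ankrd37 was the only parent of a called member that was itself called. The call of Gm28188 held in 4 of 6 fits with a library left out.

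Gm17809 and Gm12097 rose inside introns of protein-coding genes. Gm17809, a copy of Chuk (the kinase IKK alpha) within Nxpe3, had 12, 13, and 16 normalized counts in LNA Control against 23, 23, and 31 in LNA Malat1, with a log2 fold change of 0.86 ± 0.24 (adjusted p = 0.019). The log2 fold change of Nxpe3 was 0.46 ± 0.09 (adjusted p = 0.0022), which is below 1.5-fold. Gm12097, a copy of Ccdc47 (a protein of the endoplasmic reticulum) within the acylphosphatase gene Acyp2, had 17, 15, and 24 in LNA Control against 44, 28, and 27 in LNA Malat1, with a log2 fold change of 0.78 ± 0.25 (adjusted p = 0.037). Its lowest LNA Malat1 library was just above its highest control. Acyp2 itself had 52, 62, and 42 in LNA Control against 33, 32, and 38 in LNA Malat1. Its log2 fold change was -0.57 ± 0.18 (adjusted p = 0.030, limma), just under 1.5-fold. Without a library the calls of Gm17809 and Gm12097 held in 4 and 2 of 6 fits.

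The remaining called rises were chosen for mention after their values were seen, except 3110067C02Rik. That gene aligned to Zc3h14 (a poly(A)-binding zinc finger protein) over 55.6% of its length. It had 24, 26, and 25 normalized counts in LNA Control against 43, 38, and 42 in LNA Malat1, with a log2 fold change of 0.69 ± 0.17 (adjusted p = 0.010). The groups were well apart, and the call held in 5 of 6 fits with a library left out. Gm43582, aligned to Eloc (elongin C), had 20, 23, and 20 in LNA Control against 32, 41, and 35 in LNA Malat1. Gm13223 and Gm14239, at different places in the genome, are both copies of Cdv3. Gm13223 had 25, 46, and 41 in LNA Control against 64, 64, and 60 in LNA Malat1, and Gm14239 had 31, 45, and 62 against 72, 68, and 66. Both were above all controls, while Cdv3 itself changed by 0.09 ± 0.05 on the log2 scale (adjusted p = 0.25). The log2 fold change of Mup-ps23 was 0.76 ± 0.24 (adjusted p = 0.035), without overlap. Despite its name, Mup-ps23 aligned best to Hdgfl1, over 57.0% of its length. The groups of Gm5466, a copy of Pabpc4, overlapped, with 5, 10, and 20 in LNA Control against 30, 16, and 34 in LNA Malat1. With a library left out, the call held in 5 of 6 fits for Gm43582, 3 for Gm13223, 2 for Gm5466, and 1 each for Gm14239 and Mup-ps23. Without LNA Control replicate 1 the log2 fold change of Gm14239 was 0.37. Where LNA Malat1 replicates 1 and 3 counted as 1 sample, the adjusted p was 0.078 for Mup-ps23, 0.12 for Gm14239, 0.052 for Gm13223, and 0.17 for Gm5466. After quantile normalization 5 of the called rises stayed called, namely Gm12608, Gm43058, Gm20121, Gm16386, and Gm13223. The other called rises did not, among them 3110067C02Rik (adjusted p = 0.071, limma), Gm28188 (0.092), Gm43582 (0.098), Gm17809 (0.11), and Gm12097 (0.18).

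**Figure D1:**
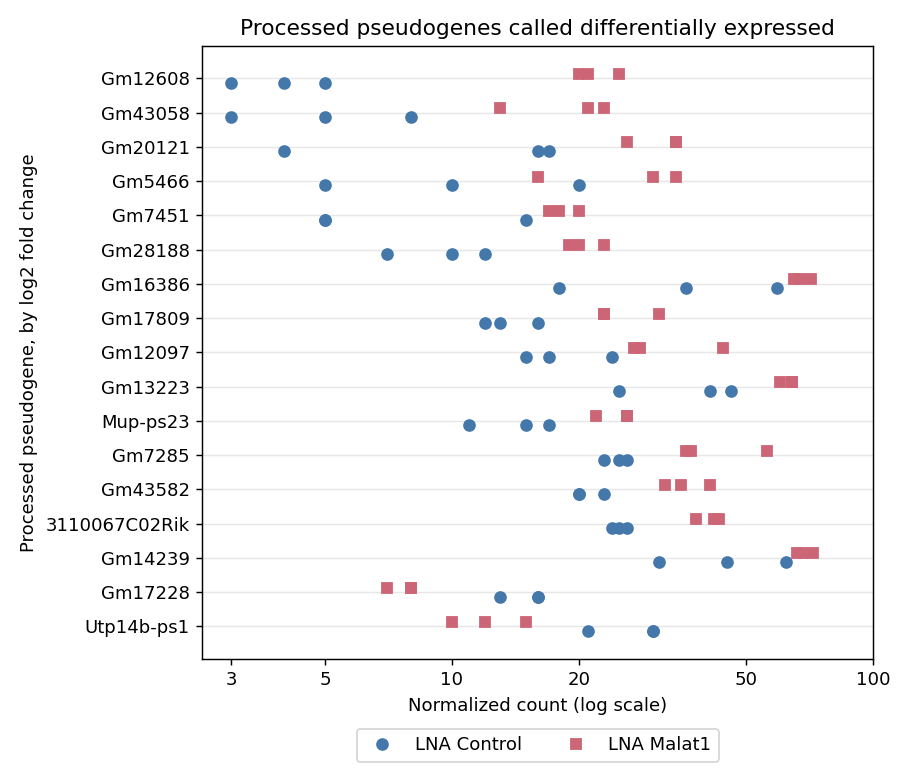
Normalized counts (log scale) of the 17 called members in each LNA Control library (circles) and each LNA Malat1 library (squares), ordered by log2 fold change. The groups of Gm12608 lie farthest apart (3 to 5 against 20 to 25), those of Gm5466 overlap, and Gm17228 and Utp14b-ps1 at the bottom are lower in LNA Malat1.

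Only 2 members passed the threshold for a fall in the fit of all 6 libraries. Utp14b-ps1 (chr3:113019875-113022139) had 21, 30, and 30 normalized counts in LNA Control against 12, 15, and 10 in LNA Malat1, with a log2 fold change of -1.07 ± 0.26 (adjusted p = 0.0080). The groups did not overlap, and the call held with each library left out. It also held after quantile normalization, under which 9 members were called lower in place of 2. Gm17228, a copy of the cytoskeletal gamma-actin gene Actg1 in an intron of Fbxl17 (an F-box protein gene), had 13, 16, and 16 in LNA Control against 8, 7, and 8 in LNA Malat1, with a log2 fold change of -0.88 ± 0.29 (adjusted p = 0.036). Fbxl17 fell by 0.94 ± 0.06 on the log2 scale (adjusted p = 4.62e-07), with 669, 606, and 613 normalized counts in LNA Control against 334, 314, and 336 in LNA Malat1. The difference between the change of Gm17228 and that of Fbxl17 was 0.06 on the log2 scale (adjusted p = 0.95). The call of Gm17228 held in 1 of 6 fits with a library left out.

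The members of highest level changed by less than 1.5-fold. AA414768 had 286, 333, and 285 normalized counts in LNA Control against 266, 234, and 250 in LNA Malat1, with a log2 fold change of -0.27 ± 0.08 (adjusted p = 0.021). Gm12250, which RefSeq lists as the immunity-related GTPase gene Irgb10, had 179, 194, and 175 in LNA Control against 212, 244, and 241 in LNA Malat1, with a log2 fold change of 0.34 ± 0.08 (adjusted p = 0.0058). Gm6548, the Eef1a1 copy, had 144, 144, and 153 in LNA Control against 182, 189, and 197 in LNA Malat1, with a log2 fold change of 0.36 ± 0.07 (adjusted p = 0.0032). None of these 3 had overlapping groups. Eef1a1 had 480, 495, and 414 in LNA Control against 442, 468, and 435 in LNA Malat1, which overlap. The change of Gm6548 above that of Eef1a1, 0.41 ± 0.17 on the log2 scale, did not pass the test (adjusted p = 0.22). Gm20008, with 109, 175, and 226 in LNA Control against 190, 175, and 194 in LNA Malat1, varied more among its controls than between groups, and its log2 fold change of 0.19 became -0.095 without LNA Control replicate 1. Gm378, aligned to the Polycomb gene Pcgf6, also overlapped, with 116, 134, and 104 against 96, 105, and 124.

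Of 108 distinct parents tested, 0 were called higher and 1 was called lower by limma, while at an unadjusted p under 0.05 there were 7 higher and 16 lower. Among protein-coding genes with a mean of at least 50, 2.38% were called higher and 3.47% lower. The parents' median log2 fold change was -0.04. In 122 pairs the change of the pseudogene was above that of the parent in 87 and below it in 35, with a median difference of 0.23 on the log2 scale. Most parents had a higher level than their copies. Among all genes, the median log2 fold change was 0.32 at a mean of 10 to under 20 and -0.03 at a mean of at least 50. Whether the pairs differ by more than genes of such levels do was not tested. Across these 122 pairs, which share the same 6 libraries and are not independent, Pearson's r between the changes of pseudogene and parent was -0.09. The difference within a pair was tested itself, with adjustment over 327 pairs of pseudogene and parent. Over all 327 pairs the pseudogene's change was higher in 7 (2.14%) and lower in 1 (0.306%). Of the 122 member pairs it was higher in 4 and lower in 1. Of these 4 members, 3 (Gm12608, Gm43058, and Gm28188) reached the mean of 10 only through LNA Malat1.

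The 4 members above their parents were Gm12608 against Hspd1 (2.25 ± 0.28 on the log2 scale, adjusted p = 0.0005), Gm28188 against Ankrd37 (2.21 ± 0.25, adjusted p = 0.00027), Gm43058 against Lsm14a (1.97 ± 0.35, adjusted p = 0.0077), and 3110067C02Rik against Zc3h14 (0.83 ± 0.19, adjusted p = 0.033). Hspd1 had 596, 606, and 535 normalized counts in LNA Control against 561, 606, and 528 in LNA Malat1, so its groups overlapped. Lsm14a had 720, 672, and 636 against 543, 555, and 580, a log2 fold change of -0.27 ± 0.06 (adjusted p = 0.0042). Utp14b-ps1 was below its parent by 1.08 ± 0.24 on the log2 scale (adjusted p = 0.029). Utp14b had 617, 729, and 709 in LNA Control against 689, 685, and 696 in LNA Malat1, again with overlap. The alignment to the parent covered 55.6% of 3110067C02Rik and 77.3% of Utp14b-ps1. Neither pair therefore enters where parents must align over at least 80%, a setting in which 3 pairs passed. With LNA Malat1 replicates 1 and 3 as 1 sample, 3 pairs passed in place of 5. Without LNA Control replicate 3, 22 pairs passed, and 2 passed without LNA Malat1 replicate 1. Without LNA Malat1 replicate 2 or 3 or LNA Control replicate 2, 3 pairs passed.

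**Figure D2:**
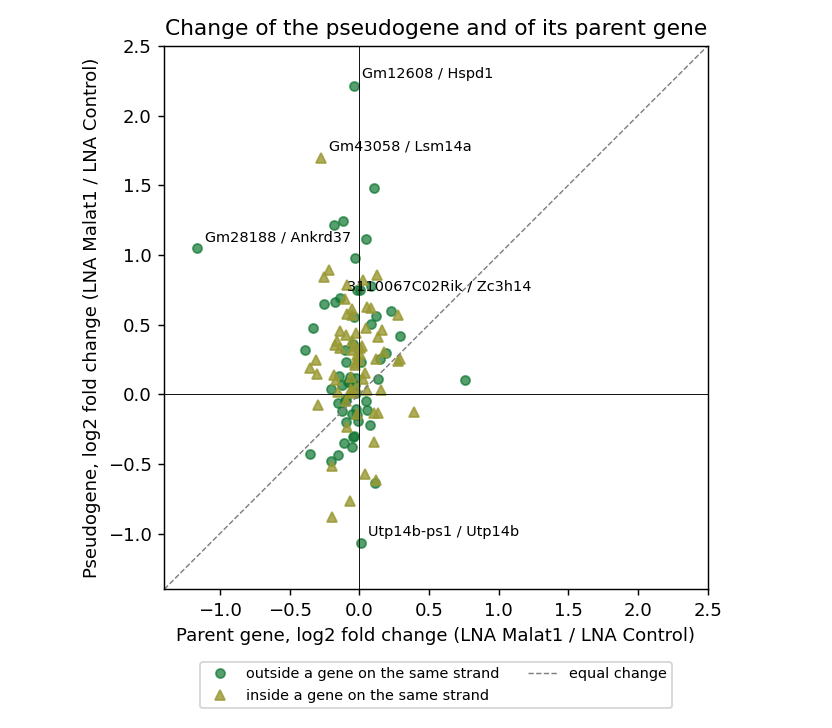
Log2 fold change of each pseudogene (vertical axis) against that of its parent (horizontal axis) for the 122 pairs tested, with pseudogenes outside (circles) or inside (triangles) a gene on the same strand and the dashed line at equal change. Most parents lie close to 0 while the pseudogenes spread from -1.07 to 2.22, and the 5 pairs past the test of the difference are named.

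Several members had the same parent, and their values are given side by side. Hspd1-ps3, another Hspd1 copy with 99.0% identity, had 9, 14, and 17 normalized counts in LNA Control against 11, 10, and 10 in LNA Malat1, which overlap, while Gm12608 rose. Whether the 2 copies differ was not tested. Of the 3 copies of Rps2, a protein of the small ribosomal subunit, Gm14276 had 72, 68, and 64 against 45, 50, and 62, a log2 fold change of -0.38 ± 0.15 (adjusted p = 0.068). Gm17971 had 11, 11, and 9 against 14, 14, and 20, and Gm18029 had 50, 84, and 117 against 98, 97, and 101. Neither of these was called. Rps2 itself changed by -0.05 ± 0.08 on the log2 scale. The 3 copies of Rpl35a, of the large subunit, changed by 0.41 ± 0.29 (Gm48808), 0.11 ± 0.33 (Gm13156), and -0.13 ± 0.31 (Gm11510), and none was called.

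Copies of ribosomal protein genes were the largest family among those grouped by the parent's name, with 27 members. Of these, 1 was called higher and 0 lower by limma, with 4 higher and 2 lower at an unadjusted p under 0.05, and the median log2 fold change was 0.25. The member called was Gm7285, a copy of Rps7, with 26, 25, and 23 normalized counts in LNA Control against 37, 56, and 36 in LNA Malat1, with a log2 fold change of 0.75 ± 0.21 (adjusted p = 0.016). Its groups did not overlap, and Rps7 changed by 0.00 ± 0.06. Of all 82 coding ribosomal protein genes tested, 0 were called by limma in either direction, with 5 higher and 0 lower at an unadjusted p under 0.05.

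The other families were small. Among 5 copies of chaperone and cyclophilin genes, Gm12608 was called higher, and of 2 cytoskeletal copies Gm17228 was called lower. Copies of genes for translation factors (6), high mobility group proteins (4), mitochondrial respiration (3), and hnRNP and splicing proteins (3) held no called member. Nor did those for the proteasome and ubiquitin (2) and glycolysis (2). The family planned as histones and nucleolar proteins held 5 copies, of Nap1l1, Npm1, Set, and Ptma. None was of a histone gene and none was called. At an unadjusted p under 0.05 these 7 families held 1 member higher and 1 lower, both copies of translation factor genes. The ferritin family had no member. Of the 73 copies whose parents' names fit none of these families, 13 were called higher and 1 lower, with a median log2 fold change of 0.26. The histone copy H2bu1-ps was counted among them, since its parent's name was not on the list, and it was not called.

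Members were also counted by identity to the parent and by the share of stretches held in common, beside 8% of all genes called higher and 2.92% lower. Differences between these classes were not tested. Of 36 members with at least 95% identity, 2 were called higher, and the median log2 fold change was 0.09. At 80% to under 95% identity 11 of 66 were called higher and 2 lower, with a median of 0.24. Under 80% it was 2 of 30, with a median of 0.24. Of the 13 members with at least 50% of their 75-base stretches shared exactly, 0 were called by limma, 0 passed an unadjusted p of 0.05, and their log2 fold changes ran from -0.52 to 0.35. Ptges3-ps, shared in full, had 12, 8, and 13 normalized counts in LNA Control against 10, 8, and 10 in LNA Malat1, which overlap. How reads reached a member without a stretch of its own was not tested.

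**Figure D3:**
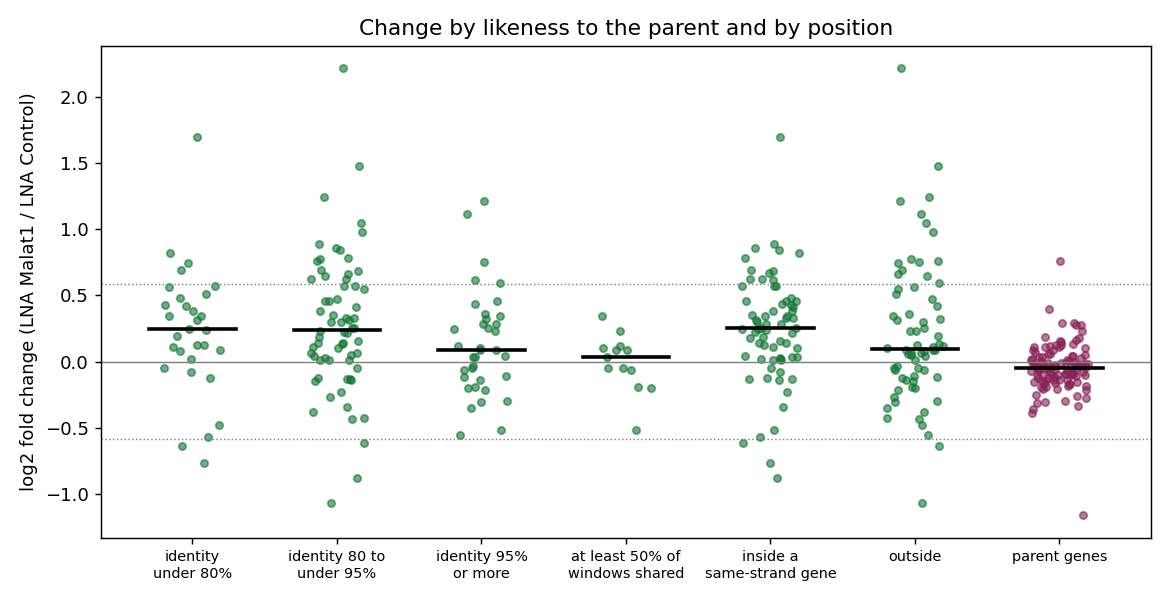
Log2 fold change of each member by identity to the parent, for the 13 members sharing at least 50% of their stretches, and by position inside or outside a gene on the same strand, beside the 108 parents. Points are genes, black bars are medians, dotted lines mark 1.5-fold, and most parents lie between these lines, with Ankrd37 lowest at -1.16.

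Position was a second property that the choice of members did not use. A total of 69 members lay inside another gene on the same strand, 64 of them in a protein-coding gene, and 68 did not. The unspliced RNA of a host gene contains such a member, and the strand setting of the count is not given in the sources used here. Only 2 members overlapped an exon of another gene on the same strand. Of the 69 inside, 4 were called higher and 1 lower, with a median log2 fold change of 0.25. Of the 68 outside, 11 were called higher and 1 lower, with a median of 0.10. Over all genes tested 8% were called higher and 2.92% lower, and the difference between inside and outside members was not tested.

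The libraries of LNA Control differed in the level of the inside members. Their summed normalized count was 1049, 1332, and 1527 in LNA Control against 1499, 1536, and 1593 in LNA Malat1, so replicate 1 was far below the others and replicate 3 lay within the LNA Malat1 range. LNA Control replicate 1 was the lowest control in 42 of these 69 members. The 161 genes of the biotype sense_intronic, which also lie in introns, summed to 3938, 4461, and 5860 against 5694, 5911, and 6320. The outside members summed to 2110, 2432, and 2397 in LNA Control against 2475, 2577, and 2578 in LNA Malat1, without overlap. Replicate 1 was the lowest control in 25 of 68. The part of this library in the results was tested by leaving it out, after which 10 members were called higher and 2 lower, and the median log2 fold change of all members was 0.099 in place of 0.19.

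**Figure D4:**
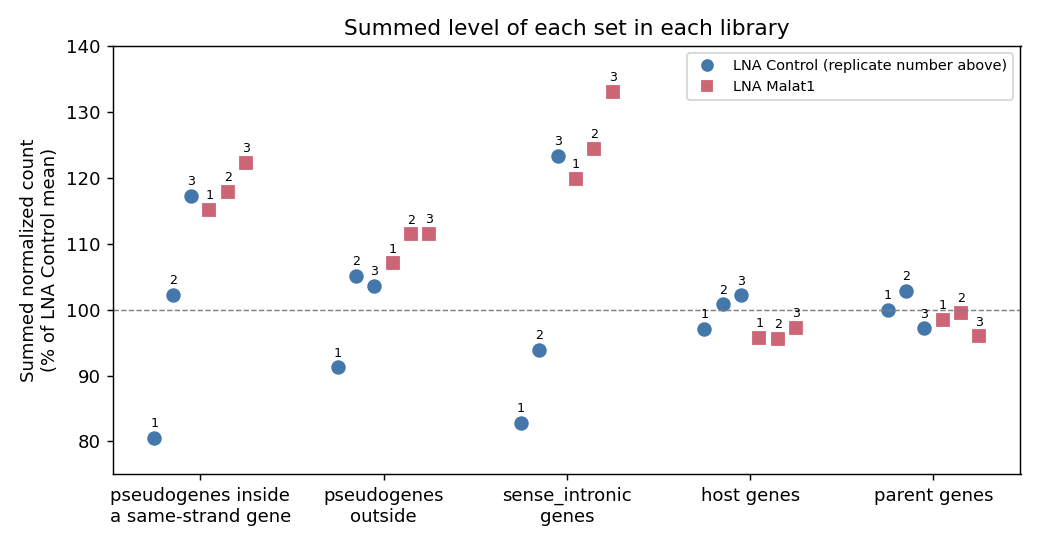
Summed normalized count of 5 sets of genes in each library, as a percentage of the LNA Control mean of that set, with the replicate number above each point (circles LNA Control, squares LNA Malat1). LNA Control replicate 1 is the lowest library for the pseudogenes and the sense_intronic genes, while host and parent genes stay close to 100%.

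The hosts were compared with their inserts in the same way. Of 63 distinct hosts tested, 1 was called higher (Gm17382) and 5 lower, and their median log2 fold change was -0.04. In 67 pairs the pseudogene's change was above the host's in 53 and below it in 14, with a median difference of 0.38 on the log2 scale. Pearson's r across these pairs was 0.39. Among all genes, the median log2 fold change was 0.32 at a mean of 10 to under 20 and -0.03 at a mean of at least 50. The inside members were also low in LNA Control replicate 1, as given above. What part level or this library has in the difference was not tested. Of the 5 members in hosts called lower, 3 were below 0 and 1, Gm17228, was called. The test of the difference passed in 3 members (1.94% of 155 pairs of pseudogene and host), all with the pseudogene's change higher.

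These were Gm12097 within Acyp2 (1.35 on the log2 scale, adjusted p = 0.015), Gm48869 within Dip2c (1.26, adjusted p = 0.020), and Gm19040 within Atg7 (0.90, adjusted p = 0.048). Gm48869, a copy of Rps6, had 12, 18, and 37 normalized counts in LNA Control against 30, 37, and 43 in LNA Malat1, and was not called alone. Dip2c had 957, 1048, and 997 against 726, 736, and 758. Its groups were far apart while those of Gm48869 overlapped. Gm19040, a copy of Camsap1, had 22, 26, and 28 against 32, 31, and 33, and Atg7, an enzyme of autophagy, had 339, 341, and 309 against 202, 235, and 228. None of the 3 differences passed with LNA Malat1 replicates 1 and 3 as 1 sample, where 10 of 67 had an unadjusted p under 0.05. The count was 8 without LNA Control replicate 3, 1 without LNA Control replicate 1 or LNA Malat1 replicate 3, and 0 without LNA Control replicate 2 or LNA Malat1 replicate 1 or 2.

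Copies inside 1 host shared its position but not its parent. Cog5, a gene of the Golgi apparatus, held Gm18029, the Rps2 copy, and Gm48808, the Rpl35a copy. Gm48808 had 15, 28, and 35 normalized counts in LNA Control against 33, 26, and 42 in LNA Malat1. Both copies were lowest in replicate 1 and highest in replicate 3 of LNA Control, as were Gm13315 (8, 14, and 30) and Gm13312 (7, 8, and 21) within the calcium channel gene Cacnb2, which copy Ldha and Nme2. Gm13315 had 17, 17, and 18 in LNA Malat1 and Gm13312 had 11, 9, and 13. The groups overlapped in all 4. Cacnb2 and Gm13312, Gm13315, and the other members named beyond the called and highest ones were chosen after their values were seen.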

How the data were processed

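RNA of HL-1 cells was measured in 6 libraries, 3 LNA Control and 3 LNA Malat1, grouped by the sample titles. Per the submitters' notes and the study's methods, reads were trimmed (Trimmomatic 0.39), aligned to mm10 (STAR 2.7.7a), and counted per gene by the authors (featureCounts 1.6.5), leaving out reads on several genes or places. The deposited values are a score, namely counts divided by 1 factor per library and rounded, here called normalized counts. They are not raw counts, so count tests were not used. Reads per library were recovered from the steps that rounding leaves, and they cover counting error only.

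Genes with a mean of at least 5 (15650) entered limma 3.58.1 (R 4.3.3; lmFit and eBayes with trend, two-sided, Benjamini-Hochberg over all of them) on log2(normalized count + 1), a scale that understates the change of low genes. The pair tests used the difference of these log2 values in each library, adjusted over all pairs of processed pseudogenes with both means at least 5. Parents were assigned with blastn 2.17.0 (plus strand, E value of at most 1e-10, 1 alignment) to GENCODE M21 transcripts. A host contains the member on the same strand. Where several did, the one of highest mean was used. The tests were also tried on simulated data, in which both groups had the same spread, unlike these libraries.

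Named genes were Malat1, the 5 members of highest mean, the 8 largest called rises and falls without overlap, the pairs past the test, their parents and hosts, and parents with at least 3 members. The members, lists, and rule were chosen with earlier results of these data known. Alternatives were quantile normalization, median-of-ratios scaling, pseudocounts of 0.1 or 5, a block for the replicate number, other minimum levels, no fold minimum, parents aligned over at least 80%, LNA Malat1 replicates 1 and 3 as 1 sample, and leaving out each library. An exact permutation test was not used, as 3 against 3 libraries cannot pass the threshold.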

Additional observations from a re-analysis of the deposited data

How the results depend on the processing

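The counts in the fit of all libraries were 15 members called higher, 2 lower, a median log2 fold change of 0.19, 5 members that differed from the parent, and 3 that differed from the host. Quantile normalization gave 5 higher and 9 lower, a median of -0.10, and 9 parent differences. The mean of LNA Malat1 replicates 1 and 3 as 1 sample gave 6 higher, 1 lower, 3 parent and 0 host differences. With genes of a mean of at least 50 alone tested they were 3 higher, 0 lower (4 at an unadjusted p under 0.05, limma), and 0 parent and 0 host differences (3 of 10 and 0 of 2 pairs at an unadjusted p under 0.05), since fewer genes entered. Among members with a mean of at least 50, tested with all genes, 3 were higher and 0 lower (4 at an unadjusted p under 0.05). Without a filter 8 were higher, and without a fold minimum 4 were lower. A pseudocount of 5 gave 9 parent and 5 host differences, and parents aligned over at least 80% gave 3.

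Leaving out 1 library gave 5 to 20 members higher, 1 to 3 lower, a median of 0.099 (without LNA Control replicate 1) to 0.30 (without LNA Control replicate 3), 2 to 22 parent differences, and 0 to 8 host differences. Higher calls were 5 without LNA Malat1 replicate 1 or 2, and 8 without LNA Malat1 replicate 3 or LNA Control replicate 2. Lower calls were 1 without LNA Control replicate 2 or LNA Malat1 replicate 3. Without LNA Control replicate 3 there were 22 parent and 8 host differences. Parent differences were 2 without LNA Malat1 replicate 1 and 3 without LNA Malat1 replicate 2 or 3 or LNA Control replicate 2. Host differences were 1 without LNA Control replicate 1 or LNA Malat1 replicate 3, and 0 without LNA Control replicate 2 or LNA Malat1 replicate 1 or 2 (13, 9, and 8 of 67 higher at an unadjusted p under 0.05). The log2 fold change of Gm20008 ran from -0.095 without LNA Control replicate 1 to 0.43 without LNA Control replicate 3. The cause was not tested in any of these.

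The replicate block gave 16 higher, 1 lower, 20 parent and 6 host differences. Deviations of same-numbered libraries correlated at 0.09, 0.18, and 0.08 over 10490 genes, and those of differently numbered libraries at -0.19 to 0.05. Each library correlated best with its own number. The sample titles do not say whether libraries of the same number were handled together, and the main fit used no block. At a mean near 10 a change must be large to pass, so members without a call are not shown to be stable.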

Other observations

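Processed pseudogenes below the level studied, with a mean of 5 to under 10, had 12 of 188 called higher (6.38%) and 0 lower by limma (7 lower at an unadjusted p under 0.05), with a median log2 fold change of 0.16. Of 56 genes annotated as transcribed processed pseudogenes, 9 were called higher and 1 lower, with a median of 0.26. Of 26 unprocessed pseudogenes, which arise by duplication of a gene and keep its introns, 6 were called higher and 0 lower (1 at an unadjusted p under 0.05), with a median of 0.29. The sense_intronic genes had 17 of 161 called higher and 3 lower, with a median of 0.26. Whether these classes differ from each other was not tested.

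H2bu1-ps, a histone H2B pseudogene outside the rule for named genes and chosen after its values were seen, had 70, 70, and 64 normalized counts in LNA Control against 48, 48, and 42 in LNA Malat1. The log2 fold change was -0.56 ± 0.13 (adjusted p = 0.0081, limma), which is just under 1.5-fold.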
